A study of Mus musculus with 6 samples.

Results

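The mRNAs of the cytosolic ribosomal proteins were compared between kidneys of WT and Selenbp1-KO mice. The members are the array probes named for a protein of the large subunit (Rpl), of the small subunit (Rps), of the stalk (Rplp0, Rplp1 and Rplp2) or Rpsa. Names of annotated pseudogenes and of the S6 kinase genes were left out. The rule gave 186 probes of 87 genes, among 56605 non-control probes on the array and 37028 genes tested. Of these 87 genes, 43 belong to the large subunit, 3 to the stalk and 31 to the small subunit. A further 9 are paralogs of a ribosomal protein gene, and 1, Rps19bp1, encodes a protein that binds Rps19. Its name fits the rule, although it is no part of the ribosome.

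RNA of the left kidney came from 3 WT and 3 Selenbp1-KO mice. All were males of strain C57BL/6J, 8 weeks old, and their kidneys were taken after fasting for 20 h, so both genotypes are in the fasted state. How the knockout allele was made is not given in the sources used here. WT samples are numbered 2 to 4 and Selenbp1-KO samples 1 to 3, as in their titles. The labels do not say that each sample is another mouse, and p-values measure the spread between these samples.

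The ribosome consists of a large and a small subunit, each an assembly of ribosomal RNA and proteins made in near equal amounts. In the small subunit mRNA is decoded, and in the large subunit the peptide bond is formed. The acidic proteins of the stalk recruit elongation factors. Mammalian ribosomal protein mRNAs are short and abundant, and most begin with a C and a run of pyrimidines, the terminal oligopyrimidine (TOP) motif, through which mTORC1 and Larp1 control their translation. An array measures the amount of mRNA only.

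Each probe is an oligonucleotide of 60 bases. Those shown first read members with large differences between the genotypes and, for Rpl41, a probe that differed from the others of the gene. Rpl41 (RefSeq mRNA) lies at chr10:127985425-127985484 on the minus strand of mm9, the build of the file coordinates. Rpl41 (Ensembl transcript) lies nearby at chr10:127985564-127985623. The Rpl13a probe spans chr7:52381388-52381529, that is 142 bases of genome for 60 bases of probe, and so crosses an exon junction. Rps10 is read at chr17:27771085-27771144 and Rpl9 at chr5:65779821-65779879. All 5 are on the minus strand and are written 5′ to 3′.
Rpl41, RefSeq mRNA: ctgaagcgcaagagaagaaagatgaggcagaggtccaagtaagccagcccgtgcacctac
Rpl41, Ensembl transcript: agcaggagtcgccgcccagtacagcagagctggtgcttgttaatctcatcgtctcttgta
Rpl13a: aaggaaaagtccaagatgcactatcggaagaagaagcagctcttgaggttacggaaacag
Rps10: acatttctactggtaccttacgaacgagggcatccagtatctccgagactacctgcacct
Rpl9: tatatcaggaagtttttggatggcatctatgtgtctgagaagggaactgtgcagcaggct

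Ribosomal protein genes have many processed copies in the genome, and a probe can read more than 1 of them. Whether each probe is unique was not computed. A pair of Rps3a1 probes, shown because they read nearly the same bases, lies at 1 locus (chr3:85941887-85941946 and chr3:85941875-85941934, minus strand, mm9). They overlap by 48 bases and differ there at 1 base, written in capitals, between a cDNA and the RefSeq mRNA.
Rps3a1, AK146304: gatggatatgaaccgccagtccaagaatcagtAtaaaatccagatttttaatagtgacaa
Rps3a1, RefSeq mRNA: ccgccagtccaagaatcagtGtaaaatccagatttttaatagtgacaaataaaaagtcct

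For 17 of the 186 probes, the design lists an RNA of another gene beside that of the member. These probes belong to 12 genes, and for 10 genes the brightest probe is one of them. The other gene was a pseudogene of Rpl14, Rpl31, Rpl34, Rplp2, Rps15a or Rps19, with Wdr89 listed too for Rplp2, the duplicate Rps27rt beside Rps27, Rpl37 beside its duplicate Rpl37rt, or a predicted gene beside Rpl22l1, Rpl26, Rpl30 or Rps26. Coordinates in the files were on another chromosome than the RefSeq gene for 7 probes, of Rpl13, Rpl36, Rps27 and Rps29. Values of these genes can therefore hold signal of a near-identical copy.

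The annotated starts were compared for the TOP motif, which members of this family are known to share. RefSeq windows of GRCm38.p6, from 250 bases before to 50 after a start, were found for 66 of the 87 genes. A C at the start followed by at least 4 C or T stood in 13 of 78 member windows, 16.7%, against 2.51% of all 32851 windows. The sites below show 10 bases before and 20 after the start, with the oligopyrimidine run in capitals where there is one at the annotated start.
Rps10, chr17:27635225-27635254, minus strand: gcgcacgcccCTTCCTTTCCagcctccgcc
Rps6, chr4:86857348-86857377, minus strand: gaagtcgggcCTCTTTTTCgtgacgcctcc
Rps18, chr17:33955646-33955675, minus strand: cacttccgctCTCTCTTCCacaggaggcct
Rpl35, chr2:39005112-39005141, minus strand: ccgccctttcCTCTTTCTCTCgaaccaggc
Rplp2, chr7:141447641-141447670, plus strand: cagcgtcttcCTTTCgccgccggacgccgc
Rpl13a, chr7:45128726-45128755, minus strand: cctgcgacaagacctcctcctttcccaggc
Rpl41, chr10:128549149-128549178, minus strand: gggccggctcggaagtgacgacaccgagca

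The Rpl13a and Rpl41 windows do not begin with such a run at the annotated base. The 13 genes with the run at the annotated base had a median log2 difference between genotypes of 0.13 (range 0.02 to 0.22). The 53 without it there had a median of 0.12 (range -0.26 to 0.39). A run of C and at least 4 C or T lay within 20 bases of the start in 73.1% of member windows and 49.4% of all windows. The split follows the annotated base, so it cannot show whether the motif bears on the differences. The letters CCGGAAG, a core site of ETS factors whose other strand, CTTCCGG, can overlap an oligopyrimidine run, stood on either strand in 34.6% of member windows and in 8.86% of all windows. A match of letters is no proof of a start or a bound site.

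Signal is given as log2 of the processed intensity relative to the 75th percentile of its own array, here called the normalised level. In the knockout arrays the level of Selenbp1 was 4.13, 3.98 and 4.10 against 7.07, 7.02 and 7.02 in WT (difference -2.96, SE 0.098, adjusted p = 0.0021). The probe of Selenbp2, its close homolog, differed by -3.22. Selenbp1 and Selenbp2 were the 2 genes with an adjusted p under 0.05 on the array. The Selenbp2 probe read 7.21, 7.15 and 7.05 in WT, although the paper describes Selenbp2 as barely expressed in kidney. Whether this probe also reads Selenbp1 mRNA was not tested, so its values are not taken as the level of Selenbp2. All 9 kidney markers were well above background on all 6 arrays. Between 51.8% and 55.5% of spots of an array were well above background, and the 75th percentile of the signal was 711 and 751 in WT 2 and 3 against 477 to 584 in the other arrays. No probe was saturated. By their scanner barcodes all 6 arrays sat on 1 slide. The first position number after the slide barcode was 1 for WT 2 and 3, and 2 for WT 4 and all Selenbp1-KO arrays. It is called the slide side here, a reading of that number that the labels do not give.

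Ribosomal protein mRNAs were among the brightest signals. Of the 87 genes, 84 were well above background on all 6 arrays, and 78 had a mean normalised level of 5 or more. Levels ran from -7.26 to 7.86 with a median of 6.39. Such values rank probes rather than mRNAs, since probes differ in sensitivity.

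Most members had a slightly higher level in Selenbp1-KO kidneys, and few passed the test. Rps14, Rpl41, Rpl13a and Rpl17 were higher at an unadjusted p under 0.05, which is 4.6% of the 87 genes. No member was lower. Over all 37028 genes 8.0% passed this threshold, 6.87% being higher and 1.13% lower. Most of these calls lay in dim genes, and over the 19263 genes well above background 5.79% passed, 4.52% being higher and 1.28% lower. The share of members called higher was thus below that over all genes and near that over genes well above background. Split by mean level, 2 of 20 members between 5 and 6 passed against 4.68% of other genes, 0 of 35 between 6 and 7 against 1.96%, and 2 of 23 at 7 or more against 1.64%. None of the members passed at an adjusted p under 0.05, as 0.0054% of all genes did (limma, lowest adjusted p = 0.279 in the members).

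Of the members, 83 had a positive and 4 a negative difference (Selenbp1-KO minus WT). The median was 0.12, the quartiles were 0.09 and 0.17, and the range was -0.26 to 0.39. Over all genes the median was 0.13 and 68.4% were positive. Over the genes well above background, it was 0.02 and 54.2% were positive. Under quantile normalization the median over all genes was 0.00, a shift of the scale itself, and that of the members 0.03 with 61 positive. Relative to the median over all genes, dim ones included, the members stood at -0.01 or at 0.03 depending on the scaling. Genes well above background had medians of 0.02 and, under quantile normalization, -0.00, beside 0.12 and 0.03 in the members.

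**Figure D1:**
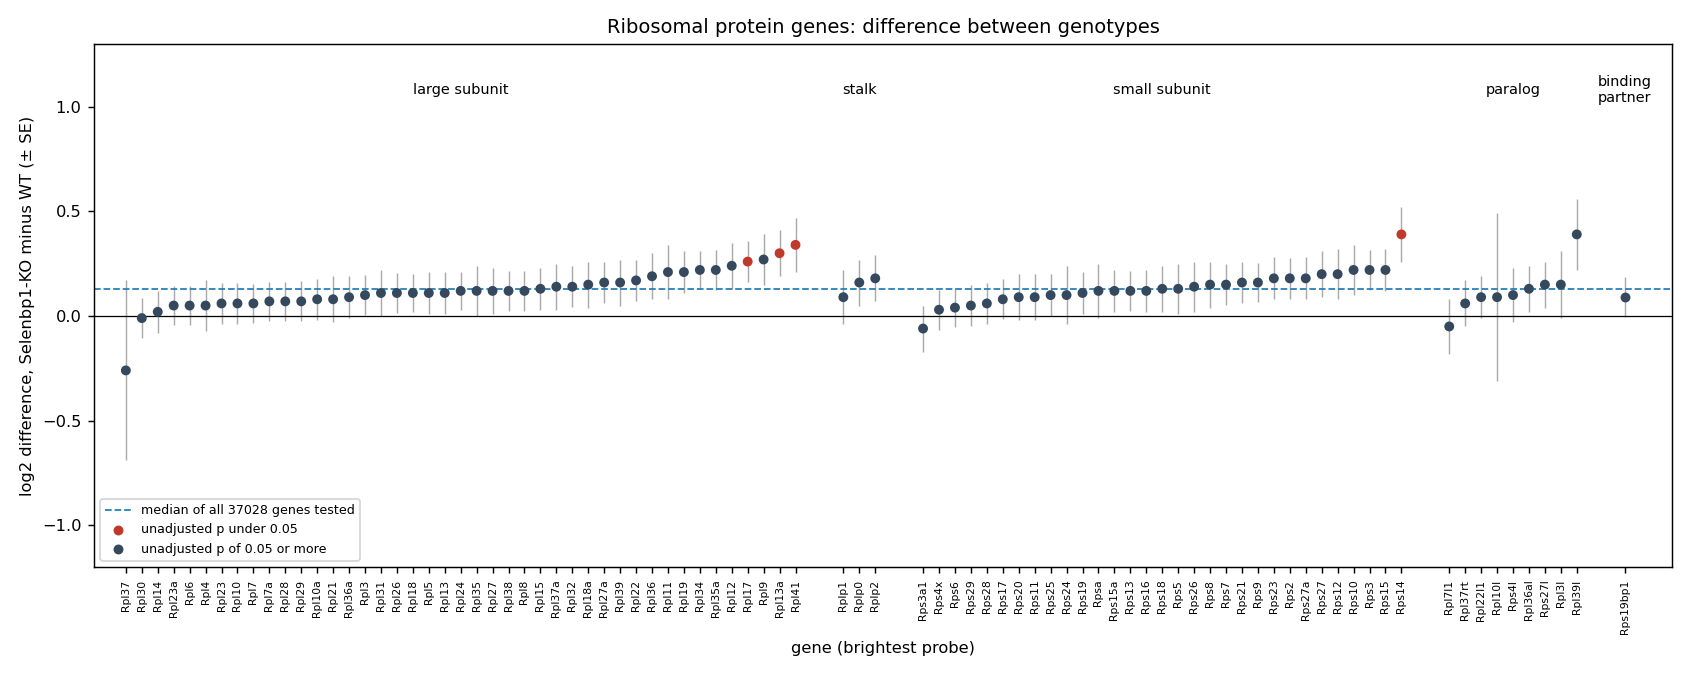
The log2 difference, Selenbp1-KO minus WT, of the brightest probe of each of the 87 genes (points, bars ± SE, n = 3 per genotype), ordered within the large subunit, the stalk, the small subunit, the paralogs and the binding partner. Most points lie just above 0 and near the dashed line, the median of 0.13 over all genes, and the 4 genes with an unadjusted p under 0.05 are in red.

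The levels of all 3 Selenbp1-KO arrays were above those of all 3 WT arrays in 31 genes, 35.6% of the members, and below them in none. Over all genes the groups did not overlap in 14.1%, and 10.2% were higher and 3.87% lower in Selenbp1-KO. Over the genes well above background they did not overlap in 19.0%, with 12.5% higher and 6.52% lower. With 3 against 3 samples an exact permutation test of 1 gene cannot go below p = 0.1.

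Rps14, a protein of the small subunit platform, had the largest difference among genes measured above background. Its level was 7.07, 7.08 and 7.36 in WT 2, 3 and 4, and 7.58, 7.67 and 7.42 in Selenbp1-KO 1, 2 and 3. The groups did not overlap, but WT 4 was closer to Selenbp1-KO 3 than to the other WT arrays. The difference was 0.39 (SE 0.13), or 1.31-fold, with a limma p of 0.0254 (adjusted p = 0.279).

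Rpl41, the smallest protein of the large subunit, was read at 7.56, 7.57 and 7.85 in WT and at 7.98, 8.13 and 7.89 in Selenbp1-KO kidneys. Here too WT 4 was next to the lowest knockout array. The difference was 0.34 (SE 0.13; unadjusted limma p of 0.0427, adjusted p = 0.279).

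Rpl13a has a role outside the ribosome too, in silencing the translation of inflammatory mRNAs. Its level was 5.77, 5.67 and 5.87 in WT and 6.09, 6.17 and 5.95 in Selenbp1-KO samples, so that the groups lay side by side without overlap. The difference was 0.30 (SE 0.11; unadjusted limma p of 0.0398, adjusted p = 0.279). Rpl13a was read by a single probe, of 1 spot.

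Rpl17, which lies around the exit of the peptide tunnel, had the smallest SE of these 4 genes. Its brightest probe read 5.78, 5.76 and 5.86 in WT and 6.07, 6.12 and 6.00 in Selenbp1-KO. Its 3 probes of 10 spots each differed by 0.26, 0.27 and 0.28, and all of them passed the unadjusted threshold (limma, adjusted p = 0.279 for the brightest).

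**Figure D2:**
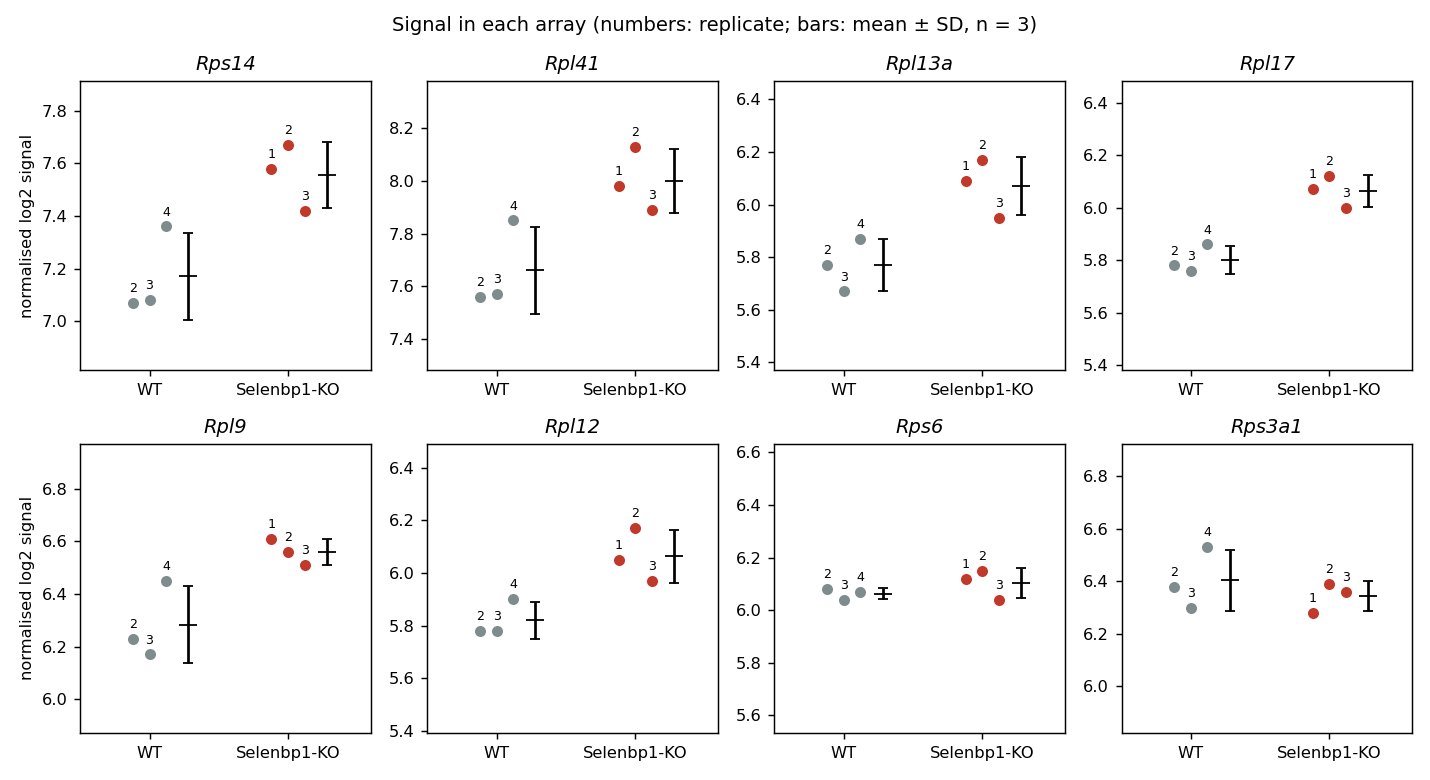
Normalised log2 signal in each of the 6 arrays for 8 genes, with the replicate number over each point and the mean ± SD (n = 3) beside each group. In the 4 genes of the upper row and in Rpl9 and Rpl12 all Selenbp1-KO points are above the WT points, with WT 4 the highest WT array, whereas the groups overlap in Rps6 and Rps3a1.

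Among the other proteins of the large subunit, Rpl9 and Rpl12 came next. Rpl9, near the base of the stalk, had levels of 6.23, 6.17 and 6.45 in WT and 6.61, 6.56 and 6.51 in Selenbp1-KO (difference 0.27, SE 0.12; limma adjusted p = 0.279). Rpl12, which together with Rplp0 anchors the stalk, was at 5.78, 5.78 and 5.90 and at 6.05, 6.17 and 5.97 (difference 0.24, SE 0.11; limma adjusted p = 0.279). Neither passed the unadjusted threshold, although their groups did not overlap. In all, 41 of the 43 large subunit genes had a positive difference, and the negative ones were Rpl37 and Rpl30. The test was passed by 3 of the 43, or 6.98%, against 8.0% of all genes and 5.79% of those well above background. The groups did not overlap in 20, or 46.5%, against 14.1% and 19.0%.

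Rpl30, a small protein at the interface of the subunits, had the smallest difference in size. Its brightest probe read 5.42, 5.45 and 5.49 in WT and 5.42, 5.50 and 5.42 in Selenbp1-KO samples (difference -0.01, SE 0.094). Rpl37 had the most negative value, -0.26, but its SE was 0.43. Its levels of -4.91, -4.87 and -4.48 in WT and -4.06, -5.71 and -5.25 in Selenbp1-KO are near background, and only 1 of 3 Selenbp1-KO arrays was well above it. A bright probe carries the name of its duplicate Rpl37rt, and its design also lists the RefSeq mRNA of Rpl37. That probe read 7.52, 7.45 and 7.69 in WT and 7.60, 7.65 and 7.59 in Selenbp1-KO, with overlapping groups (difference 0.06, SE 0.11).

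The stalk genes did not pass the test. Rplp0, often taken as a reference gene in PCR, was at 6.86, 6.77 and 6.98 in WT and 7.07, 7.06 and 6.95 in Selenbp1-KO (difference 0.16, SE 0.11). Rplp1 differed by 0.09 and Rplp2 by 0.18. By the brightest probe the groups overlapped in all 3 genes, since WT 4 was above Selenbp1-KO 3 in each of them. The dimmer probes of Rplp1 differed by 0.12 and 0.10, with Selenbp1-KO higher and no overlap, and did not pass the unadjusted threshold.

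Of the 31 small subunit genes, 30 had a positive difference. The test was passed by 1 of them, or 3.23%, against 8.0% of all genes and 5.79% of those well above background. The groups did not overlap in 11, or 35.5%, against 14.1% and 19.0%. Rps6, the substrate of the S6 kinases downstream of mTORC1, was nearly the same in all arrays, at 6.08, 6.04 and 6.07 in WT and 6.12, 6.15 and 6.04 in Selenbp1-KO (difference 0.04, SE 0.094). Rpsa, which is also known as a laminin receptor, differed by 0.12 with a WT range of 6.21 to 6.56 that held most of the knockout values. A dimmer probe of Rpsa did not overlap, at 5.83, 5.77 and 5.90 in WT and 6.08, 6.03 and 5.91 in Selenbp1-KO (difference 0.17, SE 0.10). Rps27a, made as a fusion with ubiquitin, read 6.76, 6.70 and 6.89 in WT and 6.90, 7.03 and 6.94 in Selenbp1-KO (difference 0.18, SE 0.10). The groups touch without overlap, and the test was not passed (limma adjusted p = 0.387).

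Rps3a1 was the only small subunit gene with a negative difference. Its brightest probe was at 6.38, 6.30 and 6.53 in WT and 6.28, 6.39 and 6.36 in Selenbp1-KO kidneys (difference -0.06, SE 0.11). Under quantile normalization it was -0.15 with a limma p of 0.0457 (adjusted p = 0.587), and the deposited normalized table gave the same difference. Its 4 probes disagreed in sign, as described below.

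Paralogs stand in for a ribosomal protein in some tissues. By their brightest probes, none of the 9 passed the test or separated the genotypes without overlap. A dimmer probe of Rps27l did not overlap, at 4.91, 5.02 and 5.13 in WT and 5.17, 5.21 and 5.18 in Selenbp1-KO. Nor did a dimmer probe of Rpl36al, at 4.34, 4.40 and 4.52 in WT and 4.54, 4.55 and 4.54 in Selenbp1-KO. Neither passed the unadjusted threshold. Rps27l, a p53 target, and its parent Rps27 differed by 0.15 and 0.20. Rpl22l1 differed by 0.09 and Rpl22 by 0.17. Rpl36al and Rpl36a differed by 0.13 and 0.09, Rps4l and Rps4x by 0.10 and 0.03, and Rpl7l1 and Rpl7 by -0.05 and 0.06. In each of these pairs the difference of both genes was within 2.0 SE of 0.

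The striated muscle paralog Rpl3l was weak but well above background on all arrays, at -1.85, -1.75 and -1.58 in WT and -1.57, -1.81 and -1.35 in Selenbp1-KO. Its parent Rpl3 differed by 0.10. Rpl10l and Rpl39l, which are known from male germ cells, were not well above background on any array, so no fold is given. Their parents Rpl10 and Rpl39 were bright and differed by 0.06 and 0.16. Rps19bp1 differed by 0.09 and Rps19 by 0.11, both with overlapping groups by their brightest probe.

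The array often reads 1 gene by several probes, which gives a check on single probes. It is no check on the arrays, since all probes read the same 6 samples. Of the 87 genes, 61 had several probes. In 58 of them at least 2 probes were well above background, and in 50 of these 58 all such probes had the same sign. Of all 175 member probes well above background 93.1% were positive, so a shared sign alone says little about a gene. The median range between probes of a gene was 0.032 on the log2 scale, below the median SE of 0.1. Counted by probe, 8 of 186 passed the unadjusted threshold, all higher in Selenbp1-KO, or 4.3%, against 7.98% of all 56097 probes tested, 6.47% being higher and 1.51% lower. They read Rps14, Rpl13a, Rpl17 (3 probes), Rpl41 (2 probes) and Rps10. In all, 74 probes did not overlap with Selenbp1-KO higher and 1 with WT higher, or 40.3% of the members. Over all probes this was 13.3%, with 9.22% higher and 4.06% lower in Selenbp1-KO.

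Rps10, a protein of the small subunit head, shows that the brightest probe need not be the most regular. The probe printed above has 10 spots and read 4.38, 4.42 and 4.47 in WT and 4.72, 4.78 and 4.66 in Selenbp1-KO (difference 0.30, SE 0.096; unadjusted limma p of 0.0219, adjusted p = 0.279). Its brighter probes, of 1 spot each, differed by 0.22 and 0.17 with overlapping groups.

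In 8 genes the probes above background disagreed in sign. These were Rpl6, Rpl10a, Rpl26, Rpl30, Rpl41, Rps3a1, Rps20 and Rps24. In most of them a weak probe for another transcript stood against bright probes for the mRNA. For Rpl41, the 2 probes of the RefSeq mRNA differed by 0.34 and 0.45, while the probe of the Ensembl transcript printed above read -0.76, -1.07 and -0.79 in WT and -1.05, -0.70 and -0.94 in Selenbp1-KO (difference -0.02, SE 0.15). Both probes of the mRNA passed the unadjusted threshold, and the third did not separate the genotypes.

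Rps20, a protein of the small subunit head, gave the only probe with all knockout values below the WT values. This weak probe of an Ensembl transcript read -2.17, -2.28 and -2.24 in WT and -2.54, -2.70 and -2.34 in Selenbp1-KO (difference -0.30, SE 0.13; unadjusted limma p of 0.0537, adjusted p = 0.279). The bright probes of Rps20 each differed by 0.09. For Rps3a1 the probes differed by -0.06, -0.04, 0.03 and 0.05, all under 1 SE.

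**Figure D3:**
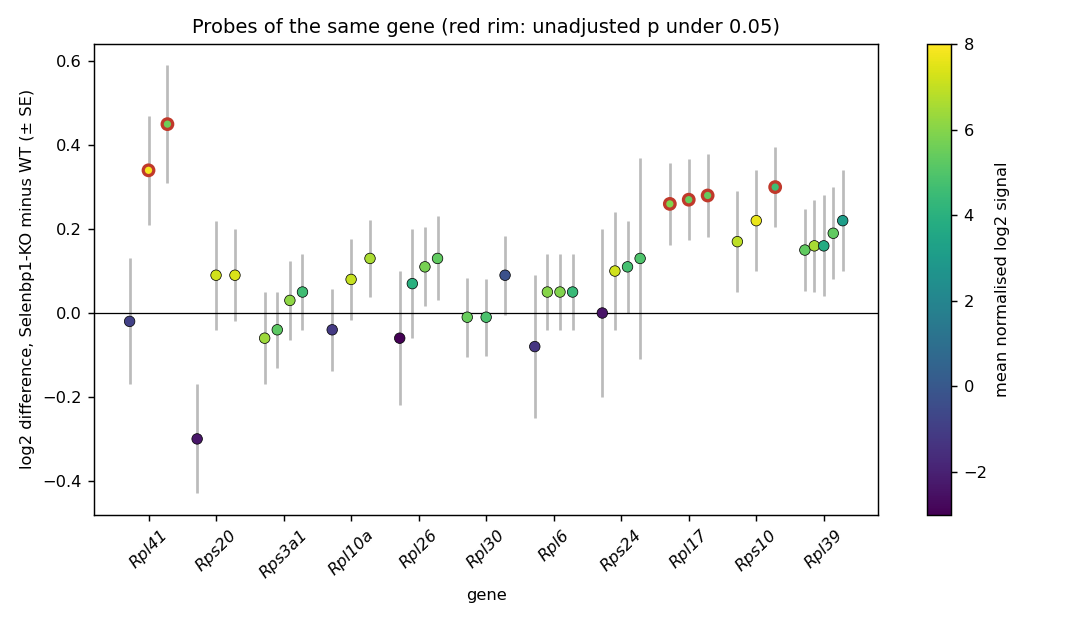
The log2 difference, Selenbp1-KO minus WT (± SE), of each probe well above background for 11 genes, coloured by the mean level of the probe. In Rpl41 and Rps20 a dim probe stands below the bright ones, whereas the 3 probes of Rpl17 and the 5 of Rpl39 lie together, and the red rims mark probes with an unadjusted p under 0.05.

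Spots of a probe on 1 array agreed closely. A set of 65 member probes, of 48 genes, was printed in 10 spots on each array. The median SD among the 10 spots was 0.032 on the log2 scale, or 0.01 for their mean, and the SD between arrays of 1 genotype was 0.055. The latter holds the spread between kidneys together with that of labelling, hybridisation and slide side, which cannot be told apart here. The SE of a difference had a median of 0.097 in these probes and of 0.11 in probes of 1 spot above background. Of the 10-spot probes 66.2% did not overlap between genotypes, against 26.4% of the member probes of 1 spot and 13.3% of all probes. The 9 member probes above background on no array all had 1 spot. The parts of spot number and signal level in this contrast were not tested.

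The differences followed single arrays as well as genotype. The median deviation of the 87 genes from their own 6-array mean was -0.095 in WT 2, -0.124 in WT 3 and 0.031 in WT 4. In Selenbp1-KO 1, 2 and 3 it was 0.073, 0.103 and 0.014. WT 4 was thus above Selenbp1-KO 3. WT 3 was the lowest array in 51 genes and WT 2 in 29, while Selenbp1-KO 2 was the highest in 54, Selenbp1-KO 1 in 18 and WT 4 in 13. Over all genes the same medians were -0.122, -0.122 and 0.069 in WT and 0.062, 0.136 and 0.036 in Selenbp1-KO. Over the 19263 genes well above background they were -0.022, -0.03 and 0.023 in WT and 0.011, 0.007 and 0.021 in Selenbp1-KO. These were smaller in size than the medians of the members in every array but Selenbp1-KO 3.

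**Figure D4:**
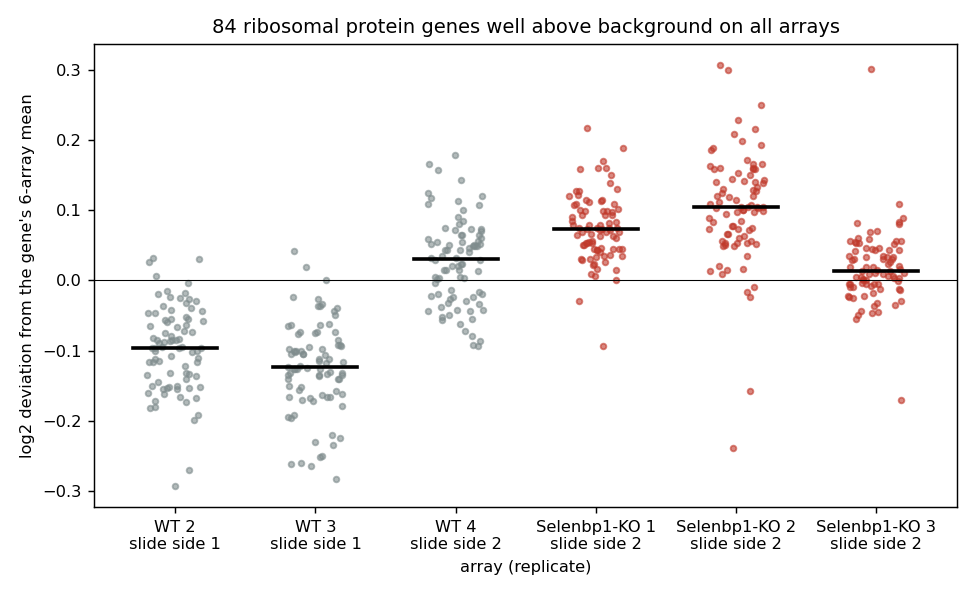
Deviation of each of 84 ribosomal protein genes well above background on all arrays from its own 6-array mean (log2, points), by array, with the median as a bar. WT 2 and WT 3, on slide side 1, are mostly below 0, and WT 4, on slide side 2 with the Selenbp1-KO arrays, lies among them.

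WT 2 and WT 3 are the arrays of the other slide side. WT 4 was above the mean of WT 2 and 3 in 83 of the 87 genes, by a median of 0.15. The mean of the Selenbp1-KO arrays was above that of WT 2 and 3 in 85 genes, by 0.18. It was above WT 4, of the same slide side, in 60 genes, by 0.03. Over all genes, dim ones included, the medians were 0.19 for WT 4 against WT 2 and 3, 0.17 for Selenbp1-KO against WT 2 and 3, and 0.06 for Selenbp1-KO against WT 4. For genes well above background these differences were not computed, but their medians per array, given above, were mostly smaller than those of the members. With slide side as a block in the fit, the median was 0.03 in the members and 0.06 over all genes. No member was higher and 1 was lower, Rpl10l, which is not above background, against 2.44% and 3.65% of all genes. Rps14 differed by 0.20 in that fit (unadjusted limma p of 0.227), Rpl41 by 0.14, Rpl13a by 0.20 and Rpl17 by 0.21, in the same direction and no longer past the threshold. Within side 2, WT has 1 array and no spread of its own, and side 1 holds no Selenbp1-KO array.

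Other bright genes moved in the same direction. Among genes with a mean level of 7 or more, the median difference was 0.12 in 23 members and 0.12 in 244 other genes. Between 6 and 7 it was 0.14 in 35 members and 0.08 in 408 others, and between 5 and 6 it was 0.12 in 20 members and 0.07 in 577 others. After quantile normalization these medians were 0.02, 0.06 and 0.04 in the members and 0.00 in the others of each range. The part of signal level in the differences of the members was not tested.

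The counts depended on the test and the scaling. Limma's trend and robust options let the assumed spread fall with signal. With them 32 members (36.8%) were higher and none lower, against 12.1% of all genes and 8.66% of those well above background called higher. Rps14 and Rpl13a passed the adjusted threshold in that fit (limma, adjusted p = 0.0313 and 0.0418), as 0.421% of all genes did. A plain two-sample test called 24 members (27.6%), all higher, against 5.61% of all genes and 8.0% of those well above background called higher. After adjustment it called none of the members. Restricting the fit to probes well above background gave 11, all higher, or 12.9% of its 85 members against 7.5% of its genes. Quantile normalization gave 10 higher (11.5%, against 5.34% of all genes and 7.94% of those well above background). It gave 1 lower (3.73% of all genes and 6.0% of those well above background). Over all genes, quantile normalization changed the split of calls from 2544 higher and 420 lower to 1976 and 1382. Without WT 4 there were 14 higher members (16.1%), while 30.4% of all genes and 7.39% of those well above background were higher. In that fit Rps14, Rpl10l and Rpl39l, the last 2 not above background on any array, also passed the adjusted threshold (limma, adjusted p = 0.049 in each), as 22.7% of all genes did. Without WT 2, WT 3, Selenbp1-KO 1 or Selenbp1-KO 2 no member was higher, against 2.45%, 3.01%, 4.83% and 3.19% of all genes. Without Selenbp1-KO 3 there were 2, against 5.68%. Rps14, Rpl41, Rpl13a, Rpl17, Rpl9 and Rpl12 remained positive in all 18 alternatives, with lowest differences of 0.20, 0.14, 0.20, 0.18, 0.11 and 0.16.

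**Figure D5:**
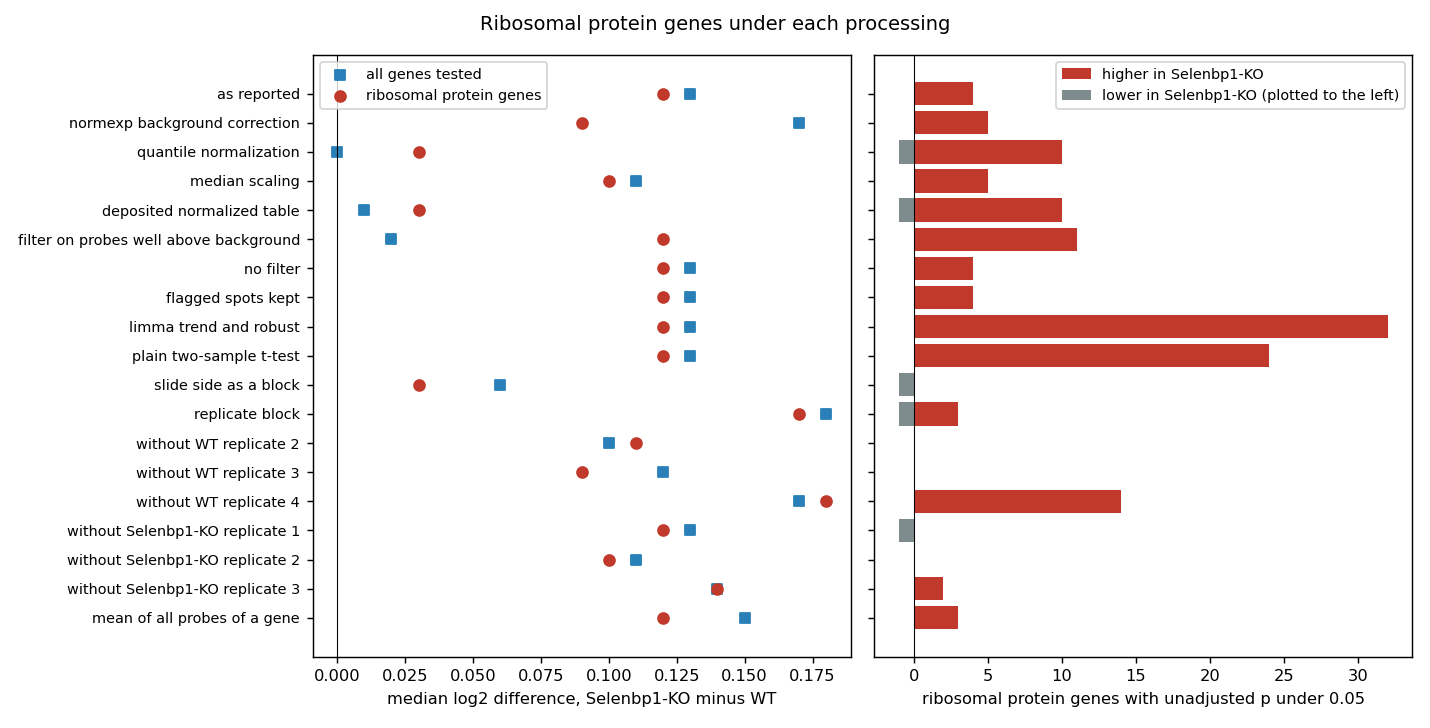
Left, the median log2 difference of the 87 ribosomal protein genes (85 with the filter on signal; circles) and of all genes tested (squares) under each processing; right, the number of ribosomal protein genes with an unadjusted p under 0.05. The median of the members stays above 0 throughout and falls to 0.03 with quantile normalization, with the deposited table and with slide side as a block, and the counts run from 0 to 32.

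None of the other genes listed for a TOP start passed the test, against 8.0% of all genes and 5.79% of those well above background. Many of these 19 genes encode elongation and initiation factors, and others, such as Tpt1, Hnrnpa1 and the noncoding RNA Gas5, do not. Their median was 0.07, and 13 were positive, or 68.4%, against 68.4% of all genes and 54.2% of those well above background. The groups did not overlap in 3, all higher in Selenbp1-KO, or 15.8%, against 14.1% and 19.0%. Fau, made as a fusion with Rps30, read 7.80, 7.72 and 7.93 in WT and 7.98, 8.01 and 7.94 in Selenbp1-KO (difference 0.16, SE 0.10). Eef1b2, an exchange factor of elongation factor 1, did not overlap either, at 5.99, 5.95 and 6.09 against 6.11, 6.22 and 6.11. Rack1, a scaffold protein of the small subunit, differed by 0.16 with overlapping groups.

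Ribosome biogenesis genes, which make and process ribosomal RNA and assemble the subunits, had mostly negative differences. Of 47 genes, 32 were negative, and the median was -0.06. None passed the unadjusted threshold (limma, lowest adjusted p = 0.279), against 8.0% of all genes and 5.79% of those well above background. Rrs1, an assembly factor, was at 0.68, 0.81 and 0.80 in WT and 0.53, 0.62 and 0.49 in Selenbp1-KO (difference -0.22, SE 0.10). Mybbp1a and Tcof1 differed by -0.18 and -0.19, and Nhp2, of the H/ACA particles, by 0.22. In this list 7 of the 47 genes did not overlap with Selenbp1-KO lower, against 3.87% of all genes and 6.52% of those well above background, and 1 with it higher, against 10.2% and 12.5%. After quantile normalization 6 genes passed the threshold, all lower, against 3.73% of all genes and 6.0% of those well above background.

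The mTORC1 list holds the kinase, its regulators and the proteins that control TOP mRNAs. It had a median of -0.07 over 22 genes, and none passed, against the same 8.0% and 5.79%. Eif4ebp2, an inhibitor of cap-dependent initiation, was at 4.12, 4.22 and 4.05 in WT and 3.85, 3.84 and 3.99 in Selenbp1-KO (difference -0.24, SE 0.11). Sesn3, a stress-induced inhibitor of mTORC1, differed by -0.23 without overlap. Rraga and Flcn, of the amino acid sensing branch, differed by 0.16 and -0.16. After quantile normalization 4 of the 22 genes were lower, against the same 3.73% and 6.0%, and none higher.

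Markers of other cells moved in part with genotype. Of 6 macrophage markers 4 were higher at an unadjusted p under 0.05, and their summed level was 3.86 to 4.18 in WT and 4.33 to 4.44 in Selenbp1-KO. Of 4 red blood cell markers 3 were higher, with a summed level of 8.01 to 8.43 against 8.50 to 9.07. Over all genes 6.87% were higher at this threshold, and over those well above background 4.52%. Lyz2, a lysozyme of macrophages, differed by 0.74 and Hbb-b1, a beta globin, by 1.26. Of 8 lymphocyte markers 1, Cd3e, was higher, the summed levels overlapped at 1.38 to 1.81 and 1.49 to 1.73, and Cd79a was not above background on any array. The 4 fat markers were all positive, with a median of 0.91 and none past the threshold, and were highest in Selenbp1-KO 2, with summed levels of 3.60 to 5.56 in WT and 4.42 to 6.89 in Selenbp1-KO. Of 4 adrenal markers 3 were not above background on any array, and the summed levels overlapped at -2.42 to -2.16 and -2.57 to -2.17. The 9 kidney markers had summed levels of 8.98 to 9.06 and 9.0 to 9.09, and none passed. The part of these cells in the ribosomal protein values was not tested, and in whole kidney a change in cell number cannot be told from a change of mRNA per cell.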

How the data were processed

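Left kidney RNA of 3 WT and 3 Selenbp1-KO mice was hybridised to one-color Agilent arrays of 62976 spots. The authors deposited Feature Extraction output (version 9.5.1.1 per the submitters' notes) with linear, background-subtracted intensities, and p-values for each spot against its background. The authors also deposited a table with 1 intensity per probe, with equal quartiles in all 6 columns, that is, quantile normalized. The 75th percentile of each array was subtracted on the log2 scale, flagged spots were dropped, and replicate spots were averaged. The probes detected at p under 0.05 in 1 or more arrays (56097 of 56605) were fitted with limma 3.58.1 in R 4.3.3 (lmFit, eBayes, two-sided). Following the study's methods, genes were called at an unadjusted p under 0.05, with Benjamini–Hochberg values over all probes beside it. Each gene takes the values of its brightest probe. "Well above background" is the scanner software's flag. The fit was tested on simulated data.

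Member genes and lists were chosen with earlier results of these data known. Genes are named if their unadjusted p was under 0.05, if they were among the 6 largest differences of either sign above background, for the stalk, Rpsa, Rps6 and Rps27a, as paralogs with their parents, for probes that disagree, and, in the related lists, for the 4 smallest p. One gene that this rule names is not reported here. Rps10, Rps19 and the marker genes with values were chosen after their values were seen. Alternatives covered background correction, normalization, filters, flags, the test, slide side, replicate number, each array left out and the mean over probes. Sequences are the probe sequences of the files and RefSeq windows of GRCm38.p6. Precision is limited by 3 arrays per genotype.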

Additional observations from a re-analysis of the deposited data

How the results depend on the processing

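In these 18 alternatives the median of the members stayed positive. It was 0.03 with quantile normalization, with the deposited table and with slide side as a block, and 0.09 to 0.18 over the leave-one-out fits. The number of higher members was 4, and became 10 with quantile normalization and with the deposited table, 11 where dim probes were left out of the fit, 32 where limma's prior was robust and followed the signal, 24 with the plain two-sample test, 0 with slide side as a block, and 0 to 14 over the leave-one-out fits. The share of all genes called higher moved too, from 6.87% to 5.34%, 5.37%, 7.5%, 12.1%, 5.61% and 2.44% in the same order, and to 2.45% to 30.4% over the leave-one-out fits. Among genes well above background it moved from 4.52% to 7.94%, 7.99%, 7.5%, 8.66%, 8.0% and 3.04%, and to 2.26% to 7.39%. The number of lower members was 0, and 1 with quantile normalization and the deposited table (Rps3a1, -0.15), with slide side as a block (Rpl10l), with the replicate block (Rpl37, -0.60), and 0 to 1 over the leave-one-out fits (Rpl37 without Selenbp1-KO replicate 1, -0.73). The cause of these moves was not tested. Replicate numbers 2 and 3 are shared, but deviations of same-numbered arrays correlated at 0.036 and 0.12, so the numbers are not taken as pairs, and the block gave 3 higher members and a median of 0.17, while 31.7% of all genes were higher with a median of 0.18. Among genes named, none with an unadjusted p under 0.05 changed sign. Those that did were small or dim. With quantile normalization, and with the deposited table except where given, they were Rpl10 (-0.05), Rpl10a (-0.01), Rpl10l (-0.30), Rpl37rt (-0.06), Rpl6 (-0.03), Rpl7 (-0.02), Rplp1 (-0.04), Rps20 (-0.05; -0.04 in the deposited table), Rps4x (-0.03) and Rps6 (-0.03). With slide side as a block they were Rpl10 (-0.03), Rpl10l (-0.84), Rpl36a (-0.02), Rpl36al (-0.01), Rpl37rt (-0.07), Rplp1 (-0.12), Rps20 (-0.07), Rps24 (-0.13), Rps4x (-0.04) and Rpsa (-0.06). With normexp correction they were Rpl37 (0.21) and Rps4x (-0.02), with the mean of all probes Rpl30 (0.02) and Rps20 (-0.04), and with the replicate block Rpl30 (0.03) and Rps3a1 (0.04). Leaving out 1 array changed the sign of Rpl10l (-0.17 to 0.55), Rpl30 (to 0.01), Rpl37 (-0.73 to 0.10), Rpl7l1 (to 0.06) and Rps4x (to -0.01).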
